A study of Mus musculus with 24 samples.

Results

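The GABA-A receptor subunits examined here are alpha-3 (Gabra3), alpha-4 (Gabra4), alpha-5 (Gabra5), beta-1 (Gabrb1), beta-2 (Gabrb2), gamma-1 (Gabrg1) and delta (Gabrd). Every probe set annotated with exactly 1 of these 7 symbols was taken, which gave 18 of the 45101 probe sets on the array. Of these, 16 passed the filter on dim probe sets and were tested; the 2 left out were second probe sets of Gabrb1 and Gabrd whose values lay between 0.888 and 30.9 intensity units on single arrays. The data are 24 single-colour Affymetrix arrays hybridised with total RNA of mouse brain tissue, from selection on contextual fear conditioning among descendants of A/J and C57BL/6J mice. In that procedure an animal freezes when it is returned to the place where it was shocked. The 4 groups hold 6 arrays each: amygdala of high freezing animals, amygdala of low freezing animals, hippocampus of high freezing animals and hippocampus of low freezing animals. All groups share the mixed C57BL/6J and A/J background. The labels give no allele, treatment, age or generation, and leave it unsaid whether each array came from a single animal or from a pool. The p-values therefore measure the spread between these arrays, which may be technical.

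GABA-A receptors are chloride channels opened by the inhibitory transmitter GABA, and each is built as a ring of subunits that usually joins alpha and beta subunits with a gamma or a delta subunit. The alpha subunit shapes the affinity for GABA and the response to benzodiazepines, and the gamma or delta subunit helps to decide where the receptor sits. Receptors with a gamma subunit are typical of synapses, whereas receptors with delta, and many with alpha-5, lie outside synapses and carry a steady, tonic inhibition. Both brain regions are central to learned fear, and inhibition in both is known to bear on how fear is acquired and extinguished.

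Gabra5 and Gabrg1 were the subunits that lay furthest apart between the regions, Gabra5 lower and Gabrg1 higher in the amygdala, and the 250 bases before their annotated starts are shown to set the values beside the sequence. The windows come from a table of RefSeq starts on build GRCm38.p6 in which 6 of the 7 genes were matched, with 10 windows in all; no Gabrd window was used here. The Gabra5 window is chr7:57510060-57510309 on the minus strand and the Gabrg1 window chr5:70842618-70842867 on the minus strand. Capitals mark CAGATG, an E-box sequence, in Gabra5, and a pair of overlapping copies of TAATTA, a core that homeodomain proteins can bind, in Gabrg1.
Gabra5: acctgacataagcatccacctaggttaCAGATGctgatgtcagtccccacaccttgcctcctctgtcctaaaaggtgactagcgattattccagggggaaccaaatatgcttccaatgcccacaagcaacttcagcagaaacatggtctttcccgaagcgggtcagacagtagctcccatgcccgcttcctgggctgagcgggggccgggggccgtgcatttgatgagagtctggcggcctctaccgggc
Gabrg1: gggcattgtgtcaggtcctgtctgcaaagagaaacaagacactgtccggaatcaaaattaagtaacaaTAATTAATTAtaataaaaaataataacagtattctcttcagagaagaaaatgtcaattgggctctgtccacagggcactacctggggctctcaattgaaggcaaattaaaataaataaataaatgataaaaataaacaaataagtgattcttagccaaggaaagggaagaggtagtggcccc
On either strand CAGATG was present in 14.4% of the 32851 windows of this length in the table and in 1 of the 10 member windows. TAATTA was present in 4.84% of all windows and in 1 member window. GGGCGG, the core of a GC box, was in 32.7% of all windows and 2 member windows, and TATAAA, the TATA box, in 12.4% of all windows and 3 member windows. The member windows with TATAAA were 1 of Gabrb2 and overlapping windows of Gabra3, so they are not separate genes. The 4 motifs were picked after the windows had been read, and a match of letters is a description of the sequence. The Gabra5 window has a GC content of 56.4% with 9 CpG sites, and the Gabrg1 window 35.6% with 1, against medians of 52.4% and 6 over all windows.

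The arrays had an even signal level. Array medians lay between 36.9 and 43.6 intensity units. Trimmed means were nearly equal on every array, as a scaling to 1 target would leave them, so even medians do not show sample quality. Arrays of 1 group correlated with Pearson's r between 0.969 and 0.983 over the probe sets kept, which do not count as independent replicates. Read depth does not apply to arrays, and the number of arrays limits the precision. Marker genes separated the arrays by regional label. Summed intensities of 4 excitatory neuron markers were 1214 to 2482 in the amygdala and 4532 to 6342 in the hippocampus. Those of 6 striatal and central amygdalar markers were 2916 to 8309 in the amygdala and 368 to 486 in the hippocampus. The latter list does not tell amygdala from striatum. No marker was at 0. Markers of other cells and neighbouring tissue also differed. All 7 oligodendrocyte markers, all 6 choroid plexus markers and 6 of 7 microglial markers were higher in the amygdala. Of 7 astrocyte markers 5 were higher and 2 lower, and of 8 thalamic and hypothalamic markers 5 were higher and 1 lower. Of 7 hippocampal pyramidal markers 6 were lower and 1 higher, and of 8 dentate granule markers 7 were lower and 1 higher. Of 7 inhibitory neuron markers 4 were higher and 2 lower, with sums of 11208 to 13515 units in the amygdala and 6893 to 7682 in the hippocampus. Their part in the subunit differences was not tested. In bulk tissue, fewer cells of a type and less RNA per cell cannot be told apart.

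Between the regions, 12 of the 16 tested probe sets differed at an adjusted p below 0.05, 7 higher and 5 lower in the amygdala (limma, Benjamini-Hochberg over 27022 probe sets). Of all probe sets tested, 51.2% passed, 27.1% higher and 24.1% lower, so a call alone was common. The median absolute log2 difference was 0.61 over the members and 0.20 over all probe sets. The regions' arrays did not overlap for 8 of the 16 member probe sets, against 13.2% of all probe sets. A called log2 difference of at least 1 was seen at 4 of the 16, against 5.55% of all. With an offset of 64 the dimmer Gabrg1 probe set (0.86) and Gabrd (0.88) came under 1, which left 2. The share of all probe sets was not computed at that offset. Values were compared as log2(intensity + 16), so folds understate the change of dim probe sets. Taking the brightest probe set per gene, Gabra3, Gabrg1 and Gabrd were higher in the amygdala, Gabra5 and Gabrb1 were lower, and Gabra4 and Gabrb2 did not pass.

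**Figure D1:**
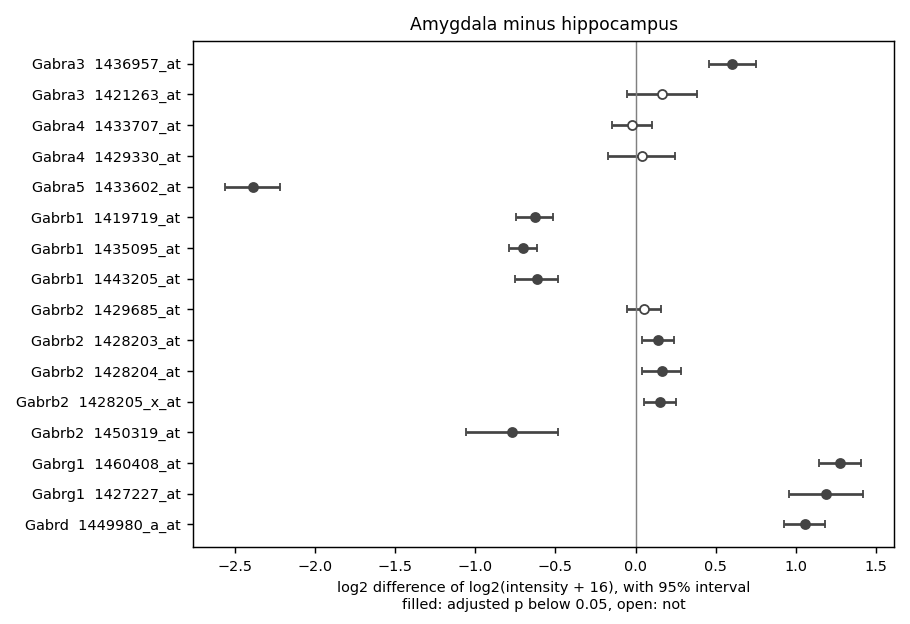
Difference between amygdala and hippocampus for each tested probe set of the 7 subunits (12 arrays per region), on the log2(intensity + 16) scale, with 95% intervals; filled points passed at an adjusted p below 0.05. Gabra5 lies at -2.39, Gabrg1 and Gabrd lie at or above 1.05, and probe set 1450319_at of Gabrb2 lies on the opposite side of 0 from the others of its gene.

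Among the alpha subunits, Gabra5 encodes the subunit that in rodents is concentrated in hippocampal pyramidal cells, mostly outside synapses. It had 1 probe set (1433602_at), whose intensity was lowest 249, median 326 and highest 487 in the amygdala of high freezing animals, and 219, 295 and 371 in that of low freezing animals. In the hippocampus it was 1591, 1691 and 1796 in high freezing animals and 1484, 1681 and 1779 in low freezing animals. The lowest hippocampal array was thus far above the highest amygdalar one. Amygdalar arrays averaged 315 ± 75.4 units, hippocampal arrays 1682 ± 91.5 (SD, n = 12 each), a log2 difference of -2.39 ± 0.085 (SE), or 5.23-fold lower (limma, adjusted p = 1.51e-19).

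Gabra3 encodes a subunit known from monoaminergic and some forebrain neurons. At its brighter probe set (1436957_at) the intensities were 374, 433 and 517 in the amygdala of high freezing animals and 382, 433 and 513 in that of low freezing animals (lowest, median and highest). The hippocampal values were 196, 280 and 327 in high freezing animals and 255, 287 and 335 in low freezing animals. All 12 amygdalar arrays were above all 12 hippocampal ones. The log2 difference was 0.60 ± 0.071 (SE), 1.52-fold higher (limma, adjusted p = 2.51e-08). Its dimmer probe set (1421263_at) averaged 72.3 units over amygdalar and 62.4 over hippocampal arrays, with overlapping arrays and a log2 difference of 0.16, short of the threshold (limma, adjusted p = 0.206). The size for Gabra3 thus rests on the brighter probe set.

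Gabra4 encodes the alpha subunit that, in the forebrain, often joins delta in receptors insensitive to classic benzodiazepines. Its brighter probe set (1433707_at) had 632, 781 and 1028 units in the amygdala of high freezing animals and 751, 902 and 1030 in that of low freezing animals. In the hippocampus it had 781, 843 and 947 units in high freezing animals and 841, 860 and 955 in low freezing animals. The hippocampal arrays fell inside the range of the amygdalar ones. The log2 difference between regions was -0.02, with a 95% interval from -0.15 to 0.10 (limma, adjusted p = 0.767). The second probe set (1429330_at) gave 0.04, with an interval from -0.17 to 0.24 (limma, adjusted p = 0.777). Both signs turned under some of the settings tried, so Gabra4 has no settled direction between regions.

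**Figure D2:**
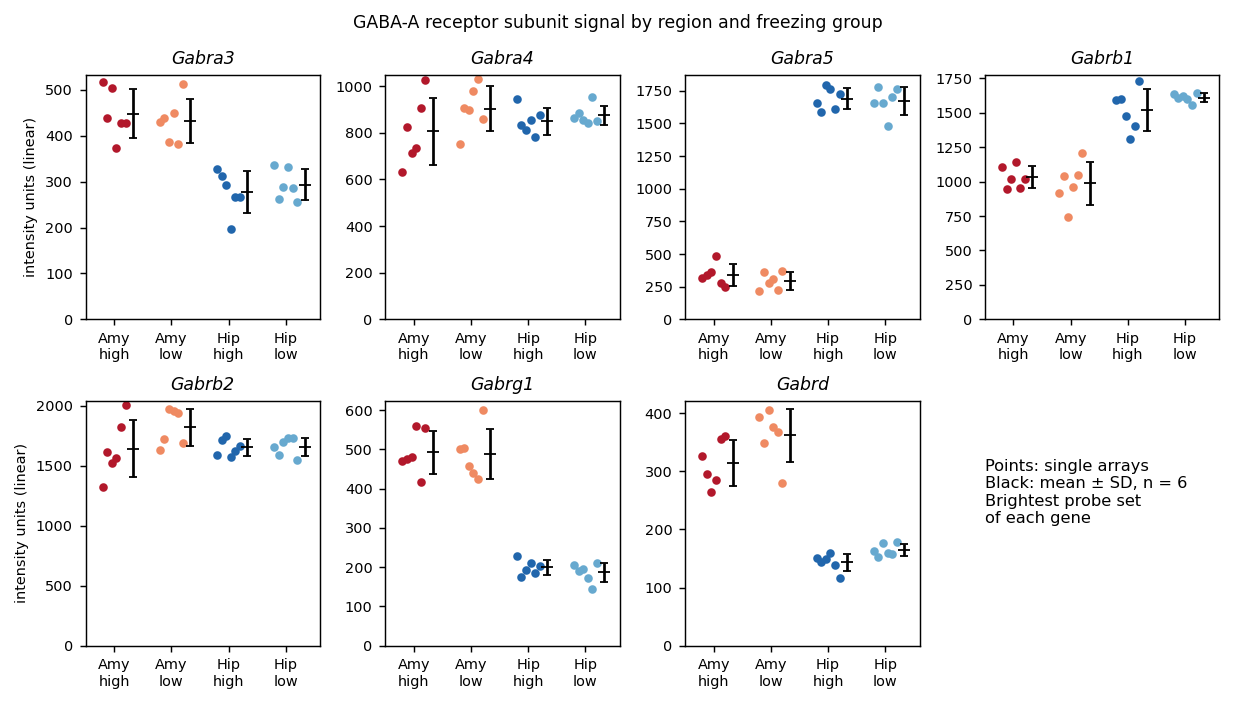
Intensity (linear units) at the brightest probe set of each subunit on every array, with mean and SD beside the points (n = 6 per group; Amy, amygdala; Hip, hippocampus; high and low, freezing). The 2 freezing groups of a region overlap in every panel, and the regions separate without overlap for Gabra3, Gabra5, Gabrb1, Gabrg1 and Gabrd.

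Beta subunits are needed for assembly and for the GABA binding site. Gabrb1, which encodes beta-1, was lower in the amygdala at all 3 tested probe sets, with log2 differences of -0.63, -0.70 and -0.62. At the brightest (1419719_at) the intensities were 945, 1019 and 1145 in the amygdala of high freezing animals and 743, 1001 and 1208 in that of low freezing animals. The hippocampal intensities were 1309, 1536 and 1727 in high freezing animals and 1557, 1612 and 1642 in low freezing animals. The lowest hippocampal array stood above the highest amygdalar one at each of the 3 probe sets. Amygdalar arrays averaged 1009 ± 120 units against 1564 ± 115 for hippocampal arrays (SD, n = 12 each), 1.55-fold lower (limma, adjusted p = 1.34e-10). The other 2 were 1.63-fold and 1.53-fold lower (limma, adjusted p = 2.84e-14 and 4.33e-09).

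Gabrb2 encodes beta-2, a beta subunit widespread in the adult brain, and its 5 probe sets did not run together. At the brightest (1429685_at) the intensities were 1321, 1586 and 2005 in the amygdala of high freezing animals and 1627, 1832 and 1975 in that of low freezing animals, against 1571, 1645 and 1743 in the hippocampus of high freezing animals and 1549, 1676 and 1731 in that of low freezing animals. The regions overlapped, with a log2 difference of 0.05 (interval from -0.05 to 0.16; limma, adjusted p = 0.398) whose sign turned with arrays centred on their median. The probe sets 1428203_at, 1428204_at and 1428205_x_at were higher in the amygdala by small amounts, 0.14, 0.16 and 0.15 on the log2 scale, with overlapping arrays (limma, adjusted p = 0.0183, 0.0213 and 0.0108). With every array centred on its median these 3 Gabrb2 differences were 0.06, 0.09 and 0.08 and did not pass (limma, adjusted p = 0.295, 0.228 and 0.205).

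The fifth Gabrb2 probe set, the dimmest (1450319_at), went the opposite way. Its intensities were 49.4, 123 and 148 in the amygdala of high freezing animals and 44.8, 48.6 and 112 in that of low freezing animals. In the hippocampus they were 110, 145 and 196 in high freezing animals and 134, 148 and 177 in low freezing animals. The arrays spread more widely in the amygdala, with an SD of log2(intensity + 16) of 0.50 in high and 0.48 in low freezing animals, than in the hippocampus, with 0.31 in high and 0.15 in low freezing animals. The region difference was -0.77 ± 0.14 (SE; limma, adjusted p = 3.2e-05). The direction of Gabrb2 between regions therefore depends on which probe set is read.

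Gabrg1 encodes gamma-1, a subunit of restricted distribution for which the central amygdala and the striatum are known sites. At its brighter probe set (1460408_at) the intensities were 417, 478 and 559 in the amygdala of high freezing animals and 426, 479 and 601 in that of low freezing animals. The hippocampal values were 176, 198 and 228 in high freezing animals and 145, 193 and 211 in low freezing animals. No hippocampal array came near the lowest amygdalar one. The mean of amygdalar arrays was 490.4 ± 56.6 units and that of hippocampal arrays 193 ± 21.7 (SD, n = 12 each), a log2 difference of 1.28 ± 0.064 (SE), 2.42-fold higher (limma, adjusted p = 3.08e-16). The second probe set (1427227_at) gave 1.19, with no overlap between regions (limma, adjusted p = 2.84e-10).

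Gabrd encodes delta, the subunit of extrasynaptic receptors that respond strongly to neurosteroids; dentate granule cells and the thalamus are known for it. Its tested probe set (1449980_a_at) had 265, 311 and 361 units in the amygdala of high freezing animals and 279, 372 and 406 in that of low freezing animals, against 117, 146 and 160 in the hippocampus of high freezing animals and 152, 161 and 179 in that of low freezing animals. The regions did not overlap. Amygdalar arrays had a mean of 338 ± 47.3 units and hippocampal arrays one of 154 ± 16.6 (SD, n = 12 each), a log2 difference of 1.05 ± 0.063 (SE), 2.08-fold higher (limma, adjusted p = 1.35e-14). Of 8 tested thalamic and hypothalamic markers 5 were also higher in these amygdalar arrays and 1 was lower. The sum was taken over 9 listed markers and included Trh, which was too dim to be tested. It was 1163 to 3711 units on amygdalar and 574 to 825 on hippocampal arrays, with Prkcd giving the most signal. Over the 12 amygdalar arrays Gabrd and that sum had r = 0.498 and rho = 0.617, which did not pass (permutation tests, adjusted p = 0.316 and 0.207). The part of thalamic or hypothalamic tissue in the Gabrd difference between regions was not tested.

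The region difference was then taken within each freezing group. In high freezing animals 8 of 16 member probe sets passed, 4 higher and 4 lower, against 37.1% of all probe sets (20.2% higher, 17.0% lower). In low freezing animals 12 of 16 passed, 7 higher and 5 lower, against 40.9% of all (21.3% higher, 19.6% lower). The probe sets that passed in low freezing animals alone were 4 of Gabrb2; their region differences in high and low freezing animals were not shown to differ, with no interaction past the threshold (limma, smallest adjusted p among members 0.824). Gabra5 had region differences of -2.30 in high and -2.47 in low freezing animals on the log2 scale, and Gabrg1 differences of 1.24 in high and 1.31 in low freezing animals at its brighter probe set. Ordering the 4 group means of each gene's brightest probe set, no neighbouring groups of Gabra4 or Gabrb2 differed. For the other 5 genes the step between regions was the one that passed, and the groups of 1 region did not differ from each other.

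The second question was whether subunit signal went with the freezing label. None of the 16 member probe sets passed between high and low freezing animals in the amygdala, in the hippocampus, or in the interaction (limma), where 0.0555%, 0.0518% and 0% of all probe sets passed. At an unadjusted p under 0.05 there were 7 member probe sets in the amygdala, 1 in the hippocampus and 1 in the interaction, against 10.7%, 11.8% and 6.06% of all probe sets. The smallest adjusted p among members was 0.22 in the amygdala, 0.412 in the hippocampus and 0.824 in the interaction (limma). A miss of the threshold does not show that levels were equal: member intervals reached from -0.59 to 1.03 on the log2 scale in the amygdala and from -0.42 to 0.43 in the hippocampus.

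**Figure D3:**
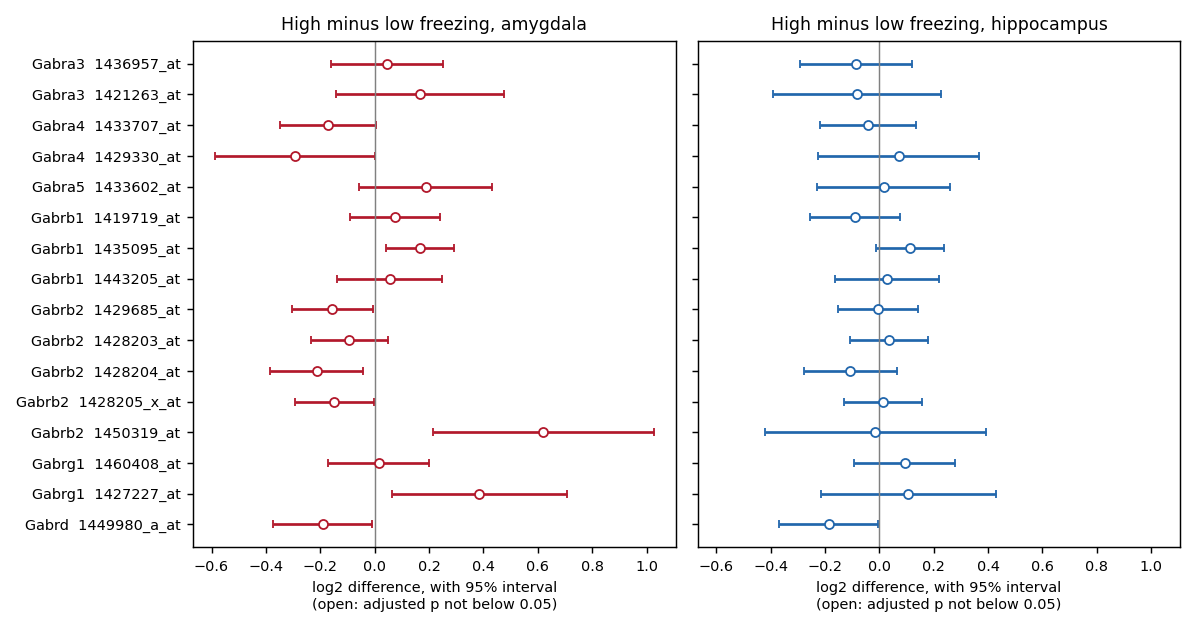
High minus low freezing for each tested probe set of the 7 subunits in the amygdala (left) and the hippocampus (right), 6 arrays per group, on the log2(intensity + 16) scale with 95% intervals. All points are open, meaning that none had an adjusted p below 0.05; in the amygdala 1450319_at of Gabrb2 lies at 0.62 and Gabrd at -0.19.

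Of the 7 amygdalar differences with an unadjusted p under 0.05, 4 came from Gabrb2, and they pointed both ways. The dimmest Gabrb2 probe set (1450319_at) had a log2 difference of 0.62 (adjusted p = 0.22 from limma fitted over all probe sets), whereas the probe sets 1429685_at, 1428204_at and 1428205_x_at had -0.16, -0.21 and -0.15. The others were 1435095_at of Gabrb1 with 0.17, 1427227_at of Gabrg1 with 0.39 and Gabrd with -0.19. The brighter probe set of Gabrg1 had 0.02 and the brightest of Gabrb1 0.08, so neither gene had the same size at its other probe sets. The single hippocampal probe set with an unadjusted p under 0.05 was Gabrd, at -0.19, nearly the same size as in the amygdala, with an interaction of -0.01. Gabra5 had 0.19 in the amygdala (interval from -0.06 to 0.43) and 0.02 in the hippocampus (interval from -0.23 to 0.26).

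Subunits of 1 class can stand in for each other, so 5 ratios between subunits were taken within each array; a ratio does not move with the scaling of an array, and since probe sets differ in brightness its changes, not its level, can be read. Gabra5 over Gabra4 had a mean log2 ratio of -1.41 ± 0.45 over amygdalar arrays and 0.95 ± 0.10 over hippocampal arrays (SD, n = 12 each), a difference of -2.36. Gabra5 over Gabra3 differed by -2.99, and its arrays did not overlap between regions either. Gabra3 over Gabra4 differed by 0.63, with -0.93 ± 0.32 in the amygdala against -1.55 ± 0.21 in the hippocampus; with the mean of all probe sets of a gene in place of the brightest it differed by 0.38 (permutation test, adjusted p = 0.00934). Gabrb1 over Gabrb2 was -0.77 ± 0.30 in the amygdala and -0.08 ± 0.11 in the hippocampus, a difference of -0.68. These 4 differences had p = 1e-05, the smallest that 100000 permutations can give, and adjusted p = 3.75e-05 over the 15 ratio tests (two-sided permutation test).

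Gabrg1 over Gabrd showed no call between regions: 0.52 ± 0.31 in the amygdala and 0.30 ± 0.21 in the hippocampus, a difference of 0.22 (permutation test, adjusted p = 0.128). Within the hippocampus the same ratio was the single one that passed with freezing. It ran from 0.27 to 0.71 in high freezing animals and from -0.11 to 0.30 in low freezing animals, so the groups overlapped slightly. The means were 0.44 ± 0.16 in high and 0.16 ± 0.16 in low freezing animals (SD, n = 6 each), a difference of 0.28 (exact permutation test, two-sided, p = 0.00649, adjusted p = 0.0195). That adjusted p was taken over all 15 ratio tests. It is lowered by the region differences with p = 1e-05 (permutation test) among them. The freezing tests were not adjusted on their own, so the call depends on which tests are adjusted together. With the mean of both Gabrg1 probe sets the difference was 0.29 and did not pass (exact permutation test, adjusted p = 0.179). In the amygdala the Gabrg1 over Gabrd ratio was 0.62 ± 0.25 in high and 0.42 ± 0.34 in low freezing animals, a difference of 0.21 that did not pass (exact permutation test, adjusted p = 0.354); the difference between the regions' freezing effects on the ratio was not tested.

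**Figure D4:**
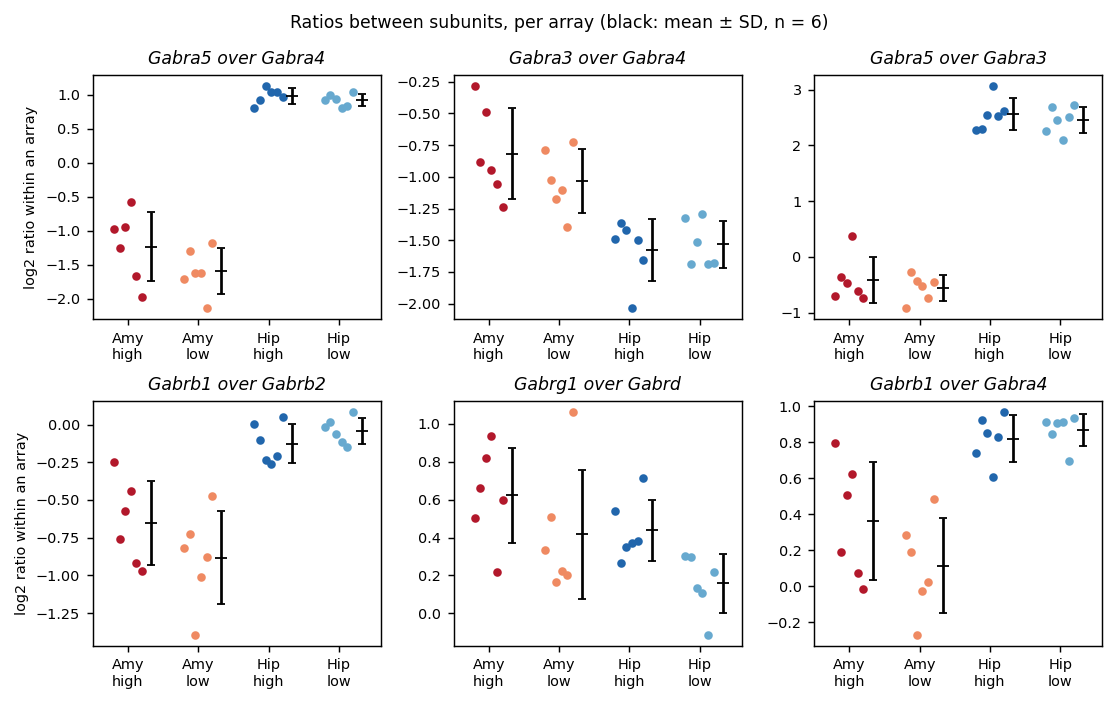
Log2 ratio between 2 subunits on each array, from log2(intensity + 16) of the brightest probe sets, with mean and SD (n = 6 per group; Amy, amygdala; Hip, hippocampus; high and low, freezing). Gabra5 over Gabra4 and Gabra5 over Gabra3 separate the regions without overlap, and Gabrg1 over Gabrd has means of 0.44 in high and 0.16 in low freezing animals in the hippocampus.

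Of the 7 genes, 3 lie in 1 cluster of receptor genes on chromosome 5, in the order Gabrg1, Gabra2, Cox7b2, Gabra4 and Gabrb1 in the RefSeq gene table of GRCm38.p6. Gabra5 lies on chromosome 7 beside Gabrg3, Gabrb2 on chromosome 11, Gabrd on chromosome 4 and Gabra3 on the X chromosome. Of the 3 in the cluster Gabrg1 was higher in the amygdala, Gabrb1 was lower and Gabra4 did not pass. The Gabra4 start and the nearer annotated start of Gabrb1 lie 387 bases apart on opposite strands. Gabrb1 has a further annotated start that lies farther away. The ratio of Gabrb1 to Gabra4 was added after the values had been seen. Gabrb1 over Gabra4 had a log2 ratio of 0.24 ± 0.31 over amygdalar arrays and 0.84 ± 0.11 over hippocampal arrays (SD, n = 12 each), a difference of -0.61, which follows from the Gabrb1 and Gabra4 differences given above and is a description. Of 8 further GABA-A receptor genes with a probe set, 2 passed the filter on dim probe sets, and both differed between regions, as did 51.2% of all probe sets. Gabra2, which encodes alpha-2 and lies between Gabrg1 and Gabra4, was lower in the amygdala, with amygdalar arrays at a mean of 519 units and hippocampal ones at 883 (log2 difference -0.75; limma, adjusted p = 7.98e-06). Gabrg3, the neighbour of Gabra5, was 0.28 higher on the log2 scale (means of 63.6 units in amygdalar and 49.7 in hippocampal arrays; limma, adjusted p = 0.0205).

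The arrays of a region also varied among themselves, more in the amygdala for most subunits. Over 12 arrays the SD of log2(intensity + 16) was 0.32 in the amygdala and 0.08 in the hippocampus for Gabra5, 0.22 and 0.08 for Gabra4, and 0.18 and 0.06 for Gabrb2. It was larger in the amygdala for 6 of the 7 brightest probe sets, against 54.1% of all probe sets, whose median SD was 0.21 in the amygdala and 0.20 in the hippocampus. Gabra3 was the exception, with 0.15 in the amygdala and 0.20 in the hippocampus. Gabrg1, counted among the 6, was nearly equal, with 0.158 in the amygdala and 0.157 in the hippocampus.

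Which subunits varied together was examined after the values had been seen, over the 21 pairs of subunits in each region and 4 marker lists in the amygdala, 70 correlations in all. Of the 70, 4 passed by Pearson and 4 by Spearman correlation. In the amygdala Gabra4 and Gabrb2 ran together, with a Pearson correlation of r = 0.946 and a Spearman correlation of rho = 0.888 over 12 arrays (permutation tests, adjusted p = 0.0007 and 0.0168). Without the 2 arrays farthest from the median r was 0.891, and it was 0.986 within the high and 0.80 within the low freezing arrays. In the hippocampus the same pair had r = -0.088 and rho = -0.147 (permutation tests, adjusted p = 0.883 and 0.775). All points of a region share the scaling of arrays and the dissection. In the amygdala the summed markers listed as thalamic and hypothalamic moved with Gabrb2, with r = 0.825 and rho = 0.848 (permutation tests, adjusted p = 0.0308 and 0.0287). With Gabra4 the sum had r = 0.79, just under the threshold (permutation test, adjusted p = 0.0478). Its rho with Gabra4 was 0.771, which did not pass (permutation test, adjusted p = 0.0619). Without the 2 farthest arrays these were r = 0.717 for Gabrb2 and 0.643 for Gabra4. Within the high freezing arrays r was 0.907 for Gabrb2 and 0.906 for Gabra4, within the low freezing arrays 0.622 and 0.473. The gene with the most signal in that sum was Prkcd, with a mean of 1022 units in the amygdala of high and 1131 in that of low freezing animals; Prkcd is also known from neurons of the central amygdala, so the sum is not specific to tissue from outside the amygdala. The part of such tissue in the Gabra4 and Gabrb2 values was not tested.

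Amygdalar Gabra5 moved with the excitatory neuron markers, with r = 0.785 and rho = 0.832 over 12 arrays (permutation tests, adjusted p = 0.0478 and 0.0303). Without the 2 farthest arrays r was 0.942, and it was 0.58 within the high and 0.943 within the low freezing arrays. Gabra5 moved against Gabrd, with rho = -0.818 (permutation test, adjusted p = 0.0322) and r = -0.757, which did not pass (permutation test, adjusted p = 0.0619); r was -0.69 without the 2 farthest arrays, -0.807 within the high and -0.661 within the low freezing arrays. No pair in the hippocampus passed in either measure. Most of the excitatory sum was Camk2a, with a mean of 1602 units in the amygdala of high and 1398 in that of low freezing animals, where Slc17a7, the next of the list, had 151 and 121. The excitatory markers summed to 1446 to 2482 units in the amygdala of high freezing animals and 1214 to 1959 in that of low freezing animals.

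**Figure D5:**
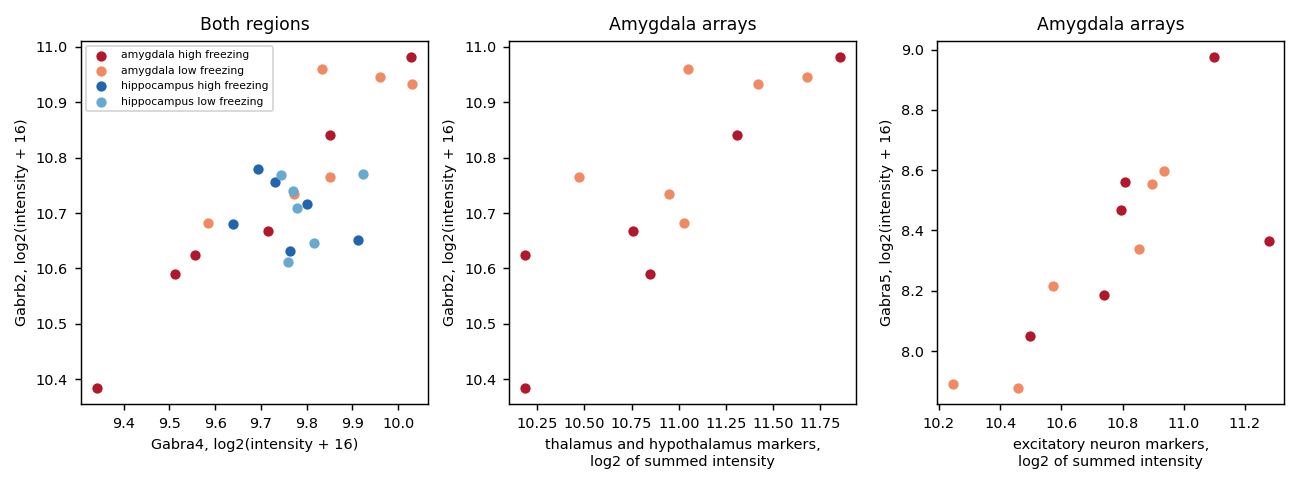
Left, Gabrb2 against Gabra4 on all 24 arrays; middle, Gabrb2 against the summed thalamic and hypothalamic markers on the 12 amygdala arrays; right, Gabra5 against the summed excitatory neuron markers on the same arrays (axes in log2(intensity + 16) for genes and log2 of summed intensity for markers). The amygdalar points of the left panel lie along a line (r = 0.946) and the hippocampal ones do not (r = -0.088).

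Genes around the receptor were read from fixed lists for the same comparisons. Their counts stand beside the 51.2% of all probe sets called between regions (27.1% higher, 24.1% lower). Each listed gene was read at its brightest probe set, whereas that share is over all probe sets kept, so the sets are unlike. With the dimmest 60% left out, 10864 of 18015 probe sets passed. Of 17 measured genes of the inhibitory synapse and of receptor trafficking, 8 were higher and 7 lower in the amygdala and 2 did not pass, with a median log2 difference of -0.04 against 0.02 over all probe sets. The trafficking adaptor Trak2 was higher by 0.69 and Rdx, which encodes radixin, an anchor of alpha-5 receptors, by 0.78 (limma, adjusted p = 4.82e-10 and 3.86e-09). Trak1 fell by 0.38 and Nsf, a membrane fusion ATPase, by 0.37 (limma, adjusted p = 2.09e-08 and 1.6e-07). Of 3 chloride transport genes 1 passed: Slc12a2, the chloride importer NKCC1, had a mean of 2164 units over amygdalar and 644 over hippocampal arrays, 3.33-fold higher (limma, adjusted p = 8.59e-19). Choroid plexus and oligodendrocytes, which express it, had higher markers in the amygdala; choroid plexus markers summed to 14302 to 20971 units on amygdalar and 1909 to 13463 on hippocampal arrays, and oligodendrocyte markers to 29966 to 41706 on amygdalar and 11922 to 15816 on hippocampal arrays. Their part in the Slc12a2 difference was not tested. The chloride exporter Slc12a5 (KCC2) had -0.08 and Clcn2 -0.20, neither past the threshold.

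Of 3 measured GABA-B receptor genes 2 passed, against the 51.2% of all probe sets: the auxiliary subunit Kctd8 was higher by 0.90 and Kctd16 fell by 0.48 (limma, adjusted p = 3.81e-11 and 0.00151), and Gabbr1 had -0.07, which did not pass. Of 3 genes of neurosteroid synthesis 1 passed: Tspo was higher by 0.55 (limma, adjusted p = 0.000171), and Star and Cyp11a1 did not pass. With freezing no gene of these lists passed in either region or in the interaction. Within the synapse and trafficking list the smallest p-values in the hippocampus were those of Rdx, with 0.38, and Gphn, which encodes the synaptic scaffold gephyrin, with 0.19 (limma, adjusted p = 0.178 and 0.234). Among the further receptor genes Gabra2 had 0.51 in the hippocampus (limma, adjusted p = 0.229).

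The genes whose profile over the 24 arrays lay closest to each subunit with a region difference of at least 1 were found by the root mean square distance of mean-centred log2 values among 12467 genes. Closest to Gabra5 were Nptx1 (distance 0.17), Dkk3 (0.18) and Gpr22 (0.18), with region differences of -2.40, -2.25 and -2.22. Closest to Gabrg1 were Dlx5, a homeobox gene of forebrain GABA neurons (0.17), Vat1 (0.17) and Zcchc12 (0.17), at 1.23, 1.25 and 1.11. Closest to Gabrd were Hadh (0.14), Psat1 (0.14) and Sh3kbp1 (0.15), at 0.89, 1.14 and 1.00. This measure follows the region difference above all.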

How the data were processed

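Total RNA of hippocampus and amygdala was measured on 24 arrays, 6 per group, grouped by the source and description labels. The deposited values are linear intensity units per probe set; their processing software was not given in the sources used. Trimmed means of the deposited intensities (2% off each end) were 149.3 to 149.4 on every array, and medians spanned 0.172 on the log2 scale, so no further normalization was applied. The 64 control probe sets and the dimmest 40% by mean log2 value were left out, which left 27022.

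Symbols came from the platform annotation: 34958 probe sets had 1 symbol, 932 several and 9211 none. No batch is given in the labels.

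Group means were estimated for log2(intensity + 16) from all 24 arrays by limma 3.58.1, run in R 4.3.3 (intensity trend in the variance prior, 20 residual degrees of freedom, two-sided, Benjamini-Hochberg over all probe sets kept, threshold 0.05). The region comparison weights both freezing groups equally. Ratios and correlations were tested by permutation in Python with scipy 1.17.1 (100000 permutations; all 924 splits for 6 against 6). On simulated arrays the amygdalar freezing comparison recovered 57 of 100 probe sets changed by 0.5 and 96 of 100 changed by 1, the region comparison 78 and 100 of 100. The simulated probe sets were independent of each other and unlike the real ones in that.

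The members, gene lists and tests were chosen with earlier results of these data known. Named were all 7 members with every probe set, per list up to 4 genes with the smallest adjusted p between regions and up to 2 with the smallest p by freezing (not all are printed), and the 3 nearest profiles of each member with a region difference of at least 1; the brightest probe set stands for a gene. No label says whether equal numbers in the titles mark the same animal in both regions, so the numbers were not used as pairs. The alternatives were other offsets, normalizations, filters, variance priors, array weights, regions fitted alone, replicate blocks and leaving out each array.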

Additional observations from a re-analysis of the deposited data

Results flagged for a closer look

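A single value stood apart from its group. At Gabrb1 probe set 1435095_at, replicate 9 of the high freezing hippocampus had 1165 intensity units, whereas the other 5 arrays of that group lay between 1276 and 1331. The gap was 0.669 of the group's range, above Dixon's 95% limit for 6 values. It was the 1 value found in 64 groups checked, and chance alone gives about 1 in 20.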

How the results depend on the processing

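Region counts of member probe sets were 12 under the alternatives except with arrays centred on their median, and 12 without each array in turn. With that centring they were 9 of 16 (4 higher, 5 lower, the 3 lost being Gabrb2), and 14189 of all 27022 probe sets passed. The main fit had 12 of 16 members and 13832 of all 27022, so after centring the members stood nearer to all probe sets. With the dimmest 60% left out 12 of 15 members and 10864 of all 18015 passed. Without a filter on dim probe sets 12 of 18 members and 14534 of all 45037 passed. The freezing and interaction counts were 0 throughout; the lowest adjusted p from limma was 0.172 under other settings and 0.0599 without 1 array, for 1450319_at of Gabrb2 in the amygdala. Deviations of same-numbered arrays had correlations from -0.079 to 0.087 over 12 pairs. For 4 of the 12 the own number gave the highest correlation within its freezing group. With the number as a replicate block 12 member probe sets passed between regions, as a fixed and as a random block (consensus correlation 0.026), and no member's call changed. Of the ratios, Gabrg1 over Gabrd in the hippocampus lost its call when each gene's probe sets were averaged (difference 0.285, exact permutation test, adjusted p = 0.179); without 1 array it lay between 0.224 and 0.313. Each freezing group fitted alone was not run. Dim probe sets limit what small differences can be seen.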
